A study of Drosophila melanogaster with 6 samples.

Results

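Cytochromes P450 are heme enzymes that oxidise fatty acids, steroid hormones, hydrocarbons, plant toxins and insecticides. Most sit in the endoplasmic reticulum and take electrons from cytochrome P450 reductase, whereas those of the mitochondrial clan use a ferredoxin. In insects many of these genes arose by tandem duplication and lie side by side, and in Drosophila they are best known from the fat body, midgut and Malpighian tubules, where they clear foreign compounds. The P450 genes were taken as every gene in the deposited comparison table whose name starts with Cyp and a digit, apart from Cyp18a1 and Cyp6t3, and this gave 77 of the 13416 genes in the table. Among them, Cyp1 encodes a cyclophilin, a protein-folding enzyme unrelated to the P450s, and it was set aside, which left 76 P450 genes, of which 2 (Cyp6t2Psi and Cyp9f3Psi) are named as pseudogenes.

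RNA was sequenced from the central nervous system (CNS) dissected from untreated larvae of the third instar kept on ordinary food, with 3 libraries per genotype and between 40 and 45 larvae behind each library. Alk-YS larvae were homozygous for an Alk allele edited with CRISPR/Cas9, which puts a serine in place of a tyrosine in the receptor's kinase domain, the counterpart of a substitution found in human neuroblastoma. The w1118 larvae were the control and carried the unedited gene. The Alk allele was made in embryos of a w1118 stock that expresses Cas9 from a vasa promoter, and the methods list that stock as the wild type, so that which of these stocks gave the control RNA was not settled. Every level and difference is that of a whole tissue, in which fewer cells of a type and less RNA per cell cannot be told apart.

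The libraries held between 18869988 and 22333967 reads assigned to genes in Alk-YS and between 18770029 and 21712148 in w1118. All 5 neuronal and all 6 glial markers examined were present and none was called different between the genotypes. Transcripts of other tissues were present as well. The 7 fat body markers summed to between 6369 and 40008 normalized counts (reads divided by the library's size factor) in Alk-YS and between 18059 and 137688 in w1118, and 1 of the 7 was called lower in Alk-YS. The 15 of 18 midgut markers found in the table summed to 5718, 29.9 and 5196 normalized counts in Alk-YS replicates 1, 2 and 3, against 30.8, 77.01 and 22344 in w1118 replicates 1, 2 and 3, so that 3 libraries carried midgut transcripts and 3 hardly any. The 6 muscle markers summed to between 1501 and 2101 normalized counts in Alk-YS and between 2755 and 3668 in w1118, with 2 of the 6 called lower. No marker found in the table was at 0 in every library.

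The P450 family was a minor part of the CNS transcriptome. Its 76 genes took 0.0288, 0.0366 and 0.0321% of the assigned reads in the Alk-YS libraries, against 0.0338, 0.0427 and 0.0411% in the w1118 libraries, and the ranges overlapped. Averaged over all 6 libraries, 24 genes reached 1 FPKM (fragments per kilobase, scaled to library size), 11 reached 5 FPKM and 6 reached 10 FPKM. At the other end, 5 genes had at most 3 reads in every library. P450 genes with more than 3 reads numbered 51, 50 and 49 in the Alk-YS libraries, against 54, 57 and 55 in the w1118 libraries. The same count over all genes was not made, so whether this difference is particular to P450 genes was not tested. A further 7 Cyp genes were listed only in the FPKM table, and 6 of those were at 0 in all 6 libraries, among them Cyp4d21, also known as sex-specific enzyme 1.

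Cyp4g15, a relative of the hydrocarbon-forming enzyme Cyp4g1 that is known from the nervous system, was the P450 gene with the highest level per length. It had 23.7, 39.4 and 30.4 FPKM in Alk-YS replicates 1, 2 and 3, against 21.1, 27.2 and 30.1 FPKM in w1118 replicates 1, 2 and 3. Its groups overlapped and its normalized counts did not differ by limma (log2 fold change 0.24 ± 0.20 SE, adjusted p = 0.716). It nevertheless took 25.4 ± 3.66% of all P450 reads in Alk-YS and 17.6 ± 2.32% in w1118 (SD, n = 3 each), with no overlap between the libraries, a share that also depends on the genes that were lower in Alk-YS.

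The next genes in order of mean FPKM over the 6 libraries were Cyp9f2 (18.3), Cyp12e1 (12.9), Cyp4e2 (12.6), Cyp6u1 (11.7), Cyp6v1 (10.7), Cyp28d1 (8.10) and Cyp6g2 (7.81). They came from 3 of the 4 clans of the family, and for every neighbouring pair in this order the ranges of the 6 libraries overlapped. Cyp28d1, a gene tied to nicotine resistance, had between 6.95 and 9.77 FPKM in Alk-YS and between 4.19 and 10.3 FPKM in w1118. Cyp6g2, which is known from the corpus allatum, the hormone gland attached to the brain, had 6.19, 10.2 and 12.02 FPKM in Alk-YS and 4.97, 3.82 and 9.67 FPKM in w1118 in replicate order. Of these 7 genes, Cyp9f2 alone had groups that did not overlap, with 12.6, 15.6 and 18.0 FPKM in Alk-YS against 18.6, 25.5 and 19.4 FPKM in w1118. Its difference did not pass the test in limma (log2 fold change -0.46 ± 0.17 SE, adjusted p = 0.272). For Cyp12e1, Cyp4e2, Cyp6u1, Cyp6v1, Cyp28d1 and Cyp6g2 the limma log2 fold changes lay between -0.15 and 0.68 with adjusted p-values of 0.505 or more. Cyp6v1 shares 557 exon bases with CR45466 on the opposite strand, so its level is uncertain.

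The ninth place of this order was held by Cyp6a17 with a mean of 7.67 FPKM, a value that stood for no library: it was 0 FPKM in each Alk-YS library and 13.5, 15.6 and 16.9 FPKM in the w1118 libraries. In w1118 alone it ranked the third among P450 genes, at 15.3 ± 1.71 FPKM (SD, n = 3). Cyp9f3Psi and Cyp6d4 completed the genes above 5 FPKM, at 6.23 and 5.78.

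**Figure D1:**
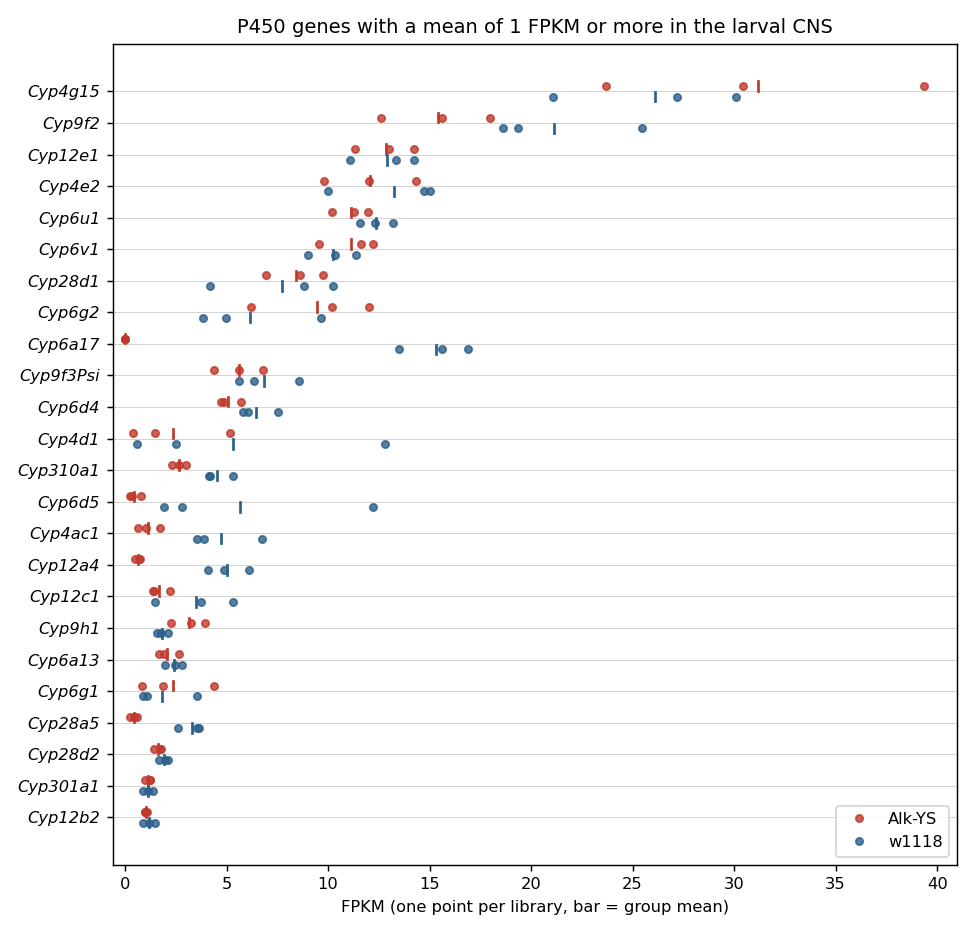
FPKM of the 24 P450 genes that averaged 1 FPKM or more, ordered by their mean over 6 libraries, with a point for each library, Alk-YS above w1118 for each gene, and a short bar at each group mean. Most genes had overlapping groups, while Cyp6a17 was at 0 in the 3 Alk-YS libraries and between 13.5 and 16.9 FPKM in the 3 w1118 libraries.

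The comparison of genotypes was made on log2(normalized count + 1) with limma over the 9668 genes whose normalized counts averaged 10 or more, which included 40 of the 76 P450 genes. Of these 40 genes, 4 were called lower in Alk-YS (10%) and 0 higher at an adjusted p under 0.05. Among all tested genes 1.71% were called lower and 1.26% higher. At an unadjusted p under 0.05, 11 P450 genes were lower and 2 higher, against 7.71% and 6.06% of all genes. DESeq2 on the recovered reads called 8 P450 genes lower and 0 higher, with 3.65% and 2.68% of all genes, and edgeR called 3 lower and 0 higher, with 1.57% and 1.13% of all genes. The 4 genes called by limma were Cyp6a17, Cyp12a4, Cyp28a5 and Cyp4ac1, and they belonged to 4 separate loci on 3 chromosome arms.

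The lower values were not limited to called genes. Of the 40 tested genes, 29 (72.5%) had a negative log2 fold change, against 48.4% of all tested genes, and their median was -0.28, against 0.01 for all tested genes. The 7 fat body markers, of a tissue that expresses many P450 genes, differed by a median of -2.22 on the log2 scale and summed to 17877, 40008 and 6369 normalized counts in Alk-YS, against 62717, 137688 and 18059 in w1118. Their part in the lower P450 values was not tested. For 12 of the 40 tested P450 genes (30.0%) every Alk-YS library lay below every w1118 library, against 10.1% of all tested genes. For 2 of the 40 (5.0%) every Alk-YS library lay above every w1118 library, against 9.41% of all tested genes. A fold change of 2 or more was seen for 11 of the 40 in the lower direction (27.5%), against 3.96% of all tested genes. In the higher direction it was seen for 2 of the 40, against 2.21%. The P450 genes are not independent of each other, since several lie in 1 cluster, and no test was made over the family. The sum of normalized counts over the 76 genes was 6629 ± 720.2 in Alk-YS and 8131 ± 1147 in w1118 (SD, n = 3 each). Without the 4 called genes the sums were 6552 ± 694 in Alk-YS and 7119 ± 1115 in w1118.

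**Figure D2:**
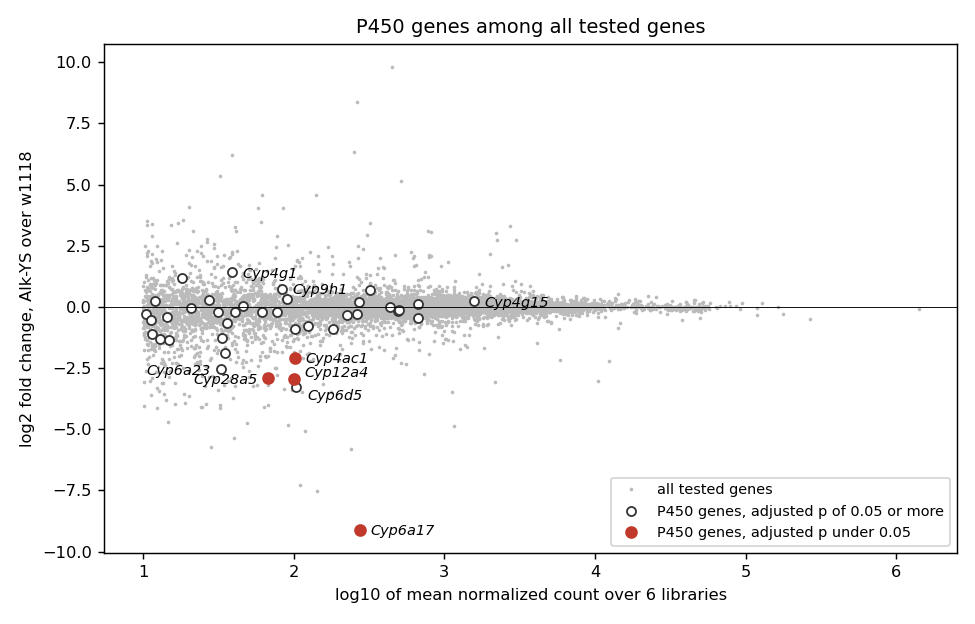
Log2 fold change of Alk-YS over w1118 against the mean normalized count over 6 libraries (log10 scale) for the 9668 tested genes in grey and the 40 tested P450 genes as circles, filled where the limma adjusted p was under 0.05. The 4 filled points all lie below 0, and 29 of the 40 circles have a negative value.

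Cyp6a17 (FBgn0015714, 2R:14873953-14875739, plus strand, BDGP6), a gene required for normal temperature preference in the fly, was the P450 gene with the largest difference. No read was assigned to it in any of the 3 Alk-YS libraries, against 485, 560.1 and 606 normalized counts in w1118 replicates 1, 2 and 3. With a count of 0 taken as 3 reads per library, Alk-YS was lower by at least 189-fold in the mean. It was called by limma (adjusted p = 1.6e-05), edgeR (adjusted p = 0.000336) and DESeq2 (adjusted p = 9.96e-20), and it remained called when any 1 library was left out. An exact two-sided permutation test of this gene gave p = 0.1, the smallest value that 3 libraries against 3 allow.

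Cyp6a17 lies in the largest P450 cluster of the table, a stretch of 31.7 kb on chromosome arm 2R (2R:14871366-14903095) with 8 P450 genes in the order Cyp6a22, Cyp6a17, Cyp6a23, Cyp6a9, Cyp6a20, Cyp6a21, Cyp6a8 and Cyp317a1. Of these members, 4 were lower in Alk-YS without overlap, and they were not all next to each other. The summed level of the cluster was 0.832 FPKM in Alk-YS and 18.1 FPKM in w1118, most of the difference being Cyp6a17. The cluster lies 1.72 Mb from the edited Alk gene on the same arm.

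Cyp6a23, the neighbour and close paralog of Cyp6a17, had 2.77, 11.7 and 17.7 normalized counts in Alk-YS replicates 1, 2 and 3, against 56.1, 53.0 and 57.1 in w1118 replicates 1, 2 and 3. The groups were far apart, yet the spread within Alk-YS was wide and the limma test did not pass (log2 fold change -2.55 ± 0.59 SE, adjusted p = 0.0694), while DESeq2 called it (adjusted p = 0.00244). Reads that match both paralogs can be assigned to either or dropped, so the split of counts between Cyp6a17 and Cyp6a23 is uncertain.

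At the far end of the cluster, Cyp6a8, an inducible gene linked to insecticide resistance, had 0, 0 and 0.930 normalized counts in Alk-YS, against 6.60, 15 and 15.7 in w1118. Cyp317a1 had 0, 2.14 and 0 normalized counts in Alk-YS, against 14.3, 18.0 and 24.6 in w1118. Both fell under the minimum of 10 and were not among the tested genes. Without that filter limma called both lower (adjusted p = 0.0182 for Cyp6a8 and 0.0157 for Cyp317a1), and 1.33% of all 13416 genes were called lower and 1.01% higher in that fit. Cyp317a1 shares 1331 exon bases with CG10249 on the opposite strand, and whether the authors' counting used the strand was not stated, so reads of both genes may not be separable.

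Between these members, Cyp6a9 had 9.22, 17.1 and 12.1 normalized counts in Alk-YS and 16.5, 7.0 and 9.84 in w1118, and the groups overlapped. Cyp6a20, known for its part in aggression, had at most 5.53 normalized counts in Alk-YS and 3.30 in w1118. Cyp6a22 reached at most 8.54 in Alk-YS and 16.0 in w1118, and Cyp6a21 at most 2.77 in Alk-YS and 6.00 in w1118, with overlapping groups for both. By the means Cyp6a22 (4.08 in Alk-YS against 10.5 in w1118) and Cyp6a21 (0.922 against 3.39) were lower in Alk-YS. The means of Cyp6a9 (12.8 against 11.1) and Cyp6a20 (3.39 against 2.76) were not. With counts this low, overlap cannot show whether the lower values extended along the whole cluster. The 5 genes of other families within 20 kb of Cyp6a17 were all tested and none was called (limma log2 fold changes between -0.33 and 0.06). The nearest of them, Inr-a, had 3615, 4059 and 3665 normalized counts in Alk-YS, against 3874, 3890.4 and 4178 in w1118.

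**Figure D3:**
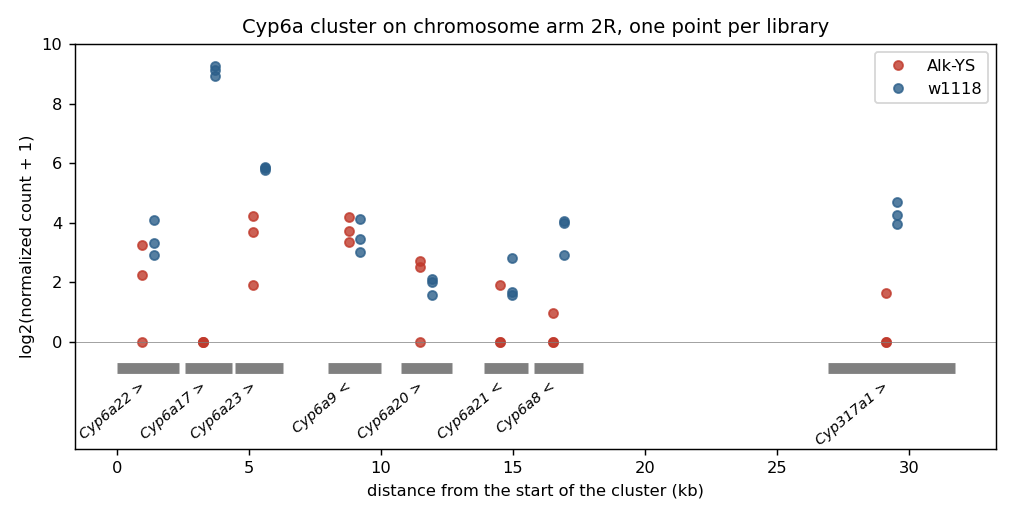
Log2(normalized count + 1) of the 8 P450 genes of the 31.7 kb cluster against distance from the cluster start in kb, with a point for each library, Alk-YS to the left of w1118, and grey bars for the gene spans with arrowheads for the strand. Cyp6a17, Cyp6a23, Cyp6a8 and Cyp317a1 are lower in each Alk-YS library than in any w1118 library, while Cyp6a22, Cyp6a9, Cyp6a20 and Cyp6a21 overlap.

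Cyp12a4 (FBgn0038681, 3R:19135158-19137136), a mitochondrial-clan enzyme whose overexpression gives resistance to the insecticide lufenuron, had 24.0, 26.7 and 16.7 normalized counts in Alk-YS replicates 1, 2 and 3. In w1118 replicates 1, 2 and 3 it had 172, 216 and 145. The means were 7.90-fold lower in Alk-YS, with a limma log2 fold change of -2.93 ± 0.27 SE and an adjusted p of 0.00164, and it was called in all 6 fits that left out 1 library. Its tandem neighbour Cyp12a5, which lies just before it, had 11.1, 9.61 and 16.7 normalized counts in Alk-YS, against 17.6, 15 and 16.7 in w1118, and the groups overlapped (limma log2 fold change -0.41 ± 0.41 SE). The 4 tested genes of other families within 20 kb had log2 fold changes between -0.13 and 0.23, and none was called.

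Cyp28a5 (FBgn0028940, 2L:13977302-13979569), which belongs to a family known from Drosophila species that feed on alkaloid-rich cacti, had 9.22, 21.4 and 16.7 normalized counts in Alk-YS and 131, 96.0 and 134 in w1118. The means were 7.63-fold lower in Alk-YS (limma log2 fold change -2.91 ± 0.35 SE, adjusted p = 0.00604), and the call held without any 1 library. Unlike the other called genes, it had neighbours that were called with it. Of 10 tested genes within 20 kb, NimC1 and NimB1 were called lower by limma, at log2 fold changes of -3.49 and -1.24. DESeq2 also called NimB4 (adjusted p = 3.0e-05) and He (adjusted p = 0.0159) lower, and NimA (adjusted p = 0.0420) higher. Their limma log2 fold changes were -1.68, -0.83 and 0.51. He lies 4355 bases from Cyp28a5. NimC1, a phagocytosis receptor of hemocytes that lies 533 bases from Cyp28a5, averaged 29.6 ± 13.9 normalized counts in Alk-YS and 323 ± 32.2 in w1118 (SD, n = 3 each). Of the 5 hemocyte markers, which include NimC1 and He, limma called NimC1 alone. Their sum ranged between 4548 and 6889 normalized counts in Alk-YS and between 6110 and 10677 in w1118. The part of hemocyte transcripts in the difference of Cyp28a5 was not tested.

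Cyp4ac1 (FBgn0031693, 2L:5264001-5265899), a member of the CYP4 clan, whose enzymes are known for hydroxylating fatty acids, had 22.1, 59.8 and 35.3 normalized counts in Alk-YS, against 134, 123 and 234 in w1118. It was 4.19-fold lower in Alk-YS by the means and its groups did not overlap, but it was the weakest of the 4 calls (limma log2 fold change -2.09 ± 0.40 SE, adjusted p = 0.0354; edgeR adjusted p = 0.0558). Leaving out any library other than Alk-YS replicate 2 raised its limma adjusted p above 0.05. Its cluster mates were lowly expressed. Cyp4ac2 reached at most 4.27 normalized counts in Alk-YS and 6.00 in w1118, and Cyp4ac3 had 4.61, 3.20 and 15.8 in Alk-YS, against 15.4, 12 and 17.7 in w1118. All 3 lie within tkv on the opposite strand, with 0 bases of exon shared, and tkv, the receptor gene around them, was not called.

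**Figure D4:**
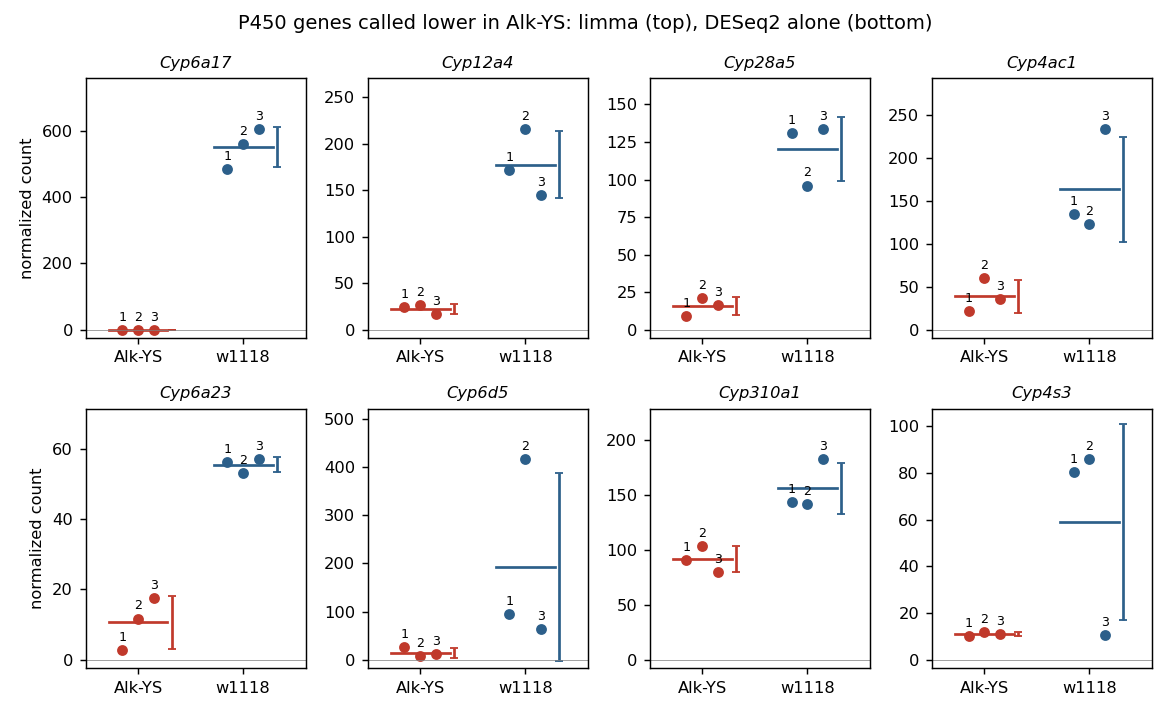
Normalized counts per library (points numbered by replicate) with group means (horizontal bars) and SD (vertical bars) for the 4 P450 genes called by limma (top) and the 4 called by DESeq2 alone (bottom), Alk-YS left of w1118. The top genes do not overlap between the genotypes, and in the bottom row Cyp4s3 does, since w1118 replicate 3 lay at 10.8 normalized counts beside the Alk-YS libraries.

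Outside the 4 called genes, DESeq2 added Cyp6a23, Cyp6d5, Cyp310a1 and Cyp4s3. Cyp6d5 had 26.7, 7.47 and 11.2 normalized counts in Alk-YS, against 95.7, 417 and 65.0 in w1118. It was lower in each Alk-YS library and its means differed 12.7-fold, but w1118 replicate 2 supplied most of the w1118 mean (limma log2 fold change -3.29 ± 0.72 SE, adjusted p = 0.0604; DESeq2 adjusted p = 8.4e-06). Cyp310a1 had 91.3, 104 and 80.0 normalized counts in Alk-YS, against 144, 142 and 183 in w1118, a small difference with tight groups (limma log2 fold change -0.76 ± 0.19 SE, adjusted p = 0.0877; DESeq2 adjusted p = 0.0334). Cyp4s3 had 10.1, 11.7 and 11.2 normalized counts in Alk-YS, against 80.3, 86.0 and 10.8 in w1118. Its value in w1118 replicate 3 was within the range of Alk-YS (limma adjusted p = 0.307; DESeq2 adjusted p = 0.0192). Without w1118 replicate 3, limma called both Cyp4s3 (log2 fold change -2.81, adjusted p = 0.00842) and Cyp6d5 (-3.82, adjusted p = 0.0331). That library held the lowest w1118 value of both genes, and no other fit that left out 1 library called either. This fit is therefore no support for the 2 differences. Cyp4s3 shares 461 exon bases with Rab3-GEF on the other strand, so its reads are uncertain.

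A further 4 genes had an unadjusted p under 0.05 or no overlap in the lower direction at moderate levels, and none of them passed in limma. Cyp9b2 had 10.1, 25.6 and 25.1 normalized counts in Alk-YS, against 51.7, 52.0 and 36.4 in w1118 (adjusted p = 0.214). Cyp6d4 had 189, 184 and 221 in Alk-YS, against 227, 235 and 293 in w1118 (adjusted p = 0.416). The pseudogene Cyp6t2Psi had 10.1, 4.27 and 10.2 in Alk-YS, against 25.3, 18.0 and 20.7 in w1118 (adjusted p = 0.253). Cyp49a1, of the mitochondrial clan, had 2.77, 10.7 and 7.44 in Alk-YS, against 11, 13 and 33.5 in w1118 (adjusted p = 0.449).

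In the other direction the tested P450 genes with higher values in every Alk-YS library than in any w1118 library were Cyp4g1 and Cyp9h1. Neither passed the test. Cyp4g1, the oenocyte enzyme that completes the synthesis of cuticular hydrocarbons, had 42.4, 91.8 and 39.1 normalized counts in Alk-YS, against 18.7, 26.0 and 14.8 in w1118. Its mean was 2.91-fold higher in Alk-YS (limma log2 fold change 1.42 ± 0.41 SE, adjusted p = 0.143; DESeq2 adjusted p = 0.0536). Cyp9h1 had 75.6, 131 and 110 normalized counts in Alk-YS, against 52.8, 71.0 and 60.0 in w1118 (limma log2 fold change 0.75 ± 0.26 SE, adjusted p = 0.232). Its lowest Alk-YS value, 75.6, lay close to its highest w1118 value, 71.0, and the spread within Alk-YS was wider than that gap.

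The tested genes not described so far stayed within the spread of the libraries. Cyp309a1 had 36.0, 37.4 and 7.44 normalized counts in Alk-YS, against 6.60, 11 and 9.84 in w1118, and Alk-YS replicate 3 lay inside the w1118 range. Cyp12c1, of the mitochondrial clan, had 87.6, 56.6 and 53.0 in Alk-YS, against 57.2, 209 and 146 in w1118, where replicate 1 lay inside the Alk-YS range. Cyp28d2, Cyp6a13, Cyp12b2, Cyp6d2, Cyp313b1, Cyp28c1 and Cyp6t1 all had overlapping groups, with limma log2 fold changes between -0.65 and -0.03 and adjusted p-values of 0.620 or more. Cyp6d2 shares 897 exon bases with nsr on the other strand, so its reads are uncertain.

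Among the 36 P450 genes under the minimum mean of 10 normalized counts, 7 had no overlap in the lower direction (19.4%, against 7.15% of all genes under the minimum) and 2 in the higher direction (4.83% of all genes under the minimum). The 7 were Cyp6a8, Cyp317a1, Cyp6a16, Cyp4d20, Cyp4d8, Cyp4p1 and Cyp4p2. Cyp6a16 had no read in Alk-YS and 4.40, 10 and 2.95 normalized counts in w1118, at least 1.98-fold lower in Alk-YS when 0 is taken as 3 reads per library. Like Cyp6a8 and Cyp317a1, it was called lower by limma without the filter (adjusted p = 0.0483). Cyp4d20 had 2.77, 0 and 0.930 in Alk-YS, against 12.1, 21.0 and 6.89 in w1118. Counts of this size carry large counting error, and in Cyp4p1 a single library, w1118 replicate 2 at 31, held most of the reads. A further 18 genes under the minimum, not described elsewhere, overlapped between the genotypes and reached at most 13 normalized counts in Alk-YS and 17.6 in w1118. Cyp6w1, which held the highest single value among them, had 3.69, 3.20 and 0.930 in Alk-YS, against 17.6, 17 and 2.95 in w1118. There w1118 replicate 3 stood with Alk-YS, as it did for Cyp4s3.

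The 2 genes in the higher direction were Cyp12d1-d and Cyp6a2, both known as inducible by xenobiotics. Cyp12d1-d had 3.69, 21.4 and 7.44 normalized counts in Alk-YS and no read in w1118, at least 3.51-fold higher in Alk-YS when 0 is taken as 3 reads per library. Its near-identical copy Cyp12d1-p had 0.922, 7.47 and 4.65 in Alk-YS, against 2.20, 3.00 and 0 in w1118, and reads of the pair cannot be assigned with certainty. Cyp6a2 had 9.22, 4.27 and 4.65 in Alk-YS, against 2.20, 0 and 0 in w1118.

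Sorted by clan, the called genes were spread over 3 of the 4 clans. The CYP3 clan, which holds most genes known for detoxification, had 35 members and 23 tested, of which 16 were lower and 2 were called (Cyp6a17 and Cyp28a5), with a median log2 fold change of -0.23. The CYP4 clan had 29 members but only 8 tested, of which 6 were lower and 1 was called (Cyp4ac1), with a median of -0.77. The mitochondrial clan had 9 members and 7 tested, of which 6 were lower and 1 was called (Cyp12a4), with a median of -0.41. The CYP2 clan, with its developmental genes, had 3 members and 2 tested, neither called. Those 2 were Cyp303a1, needed for sensory bristles, and Cyp304a1. Cyp303a1 had between 6.45 and 11.7 normalized counts in Alk-YS and between 9.90 and 14.8 in w1118, but shares 919 exon bases with heix. Cyp301a1, a mitochondrial-clan gene of cuticle formation, had 49.8, 50.2 and 39.1 in Alk-YS, against 55.0, 46.0 and 36.4 in w1118.

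By position, 43 of the 76 genes fell into 16 clusters, defined as runs with at most 20 kb between neighbours, and 31 of the 76 lay on chromosome arm 2R. Of the 16 clusters, 3 held a gene called by limma, and in each of these exactly 1 member was called. In the Cyp6a cluster 3 of 8 members were tested, and 2 were tested in each of the Cyp4ac and Cyp12a clusters. In the Cyp6a cluster, DESeq2 also called Cyp6a23, and limma without the minimum also called Cyp6a8 and Cyp317a1. In several other clusters 1 member carried most of the expression. In the run of Cyp4ad1, Cyp4e2 and Cyp4e1, Cyp4e2 had 12.04 FPKM in Alk-YS and 13.2 FPKM in w1118, of cluster sums of 12.3 and 13.5 FPKM. In the pair Cyp28d2 and Cyp28d1, Cyp28d1 had 8.44 of 10.1 FPKM in Alk-YS and 7.75 of 9.67 FPKM in w1118. In the pair Cyp9f3Psi and Cyp9f2, Cyp9f2 had 15.4 of 21.0 FPKM in Alk-YS and 21.1 of 28 FPKM in w1118. Cyp6g1 and Cyp6g2 overlap by 94 exon bases on opposite strands. Of this pair, Cyp6g2 had 9.47 of 11.8 FPKM in Alk-YS and 6.15 of 7.99 FPKM in w1118.

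Several P450 genes stood high in single libraries, together with the markers of other tissues. Cyp6g1, known for resistance to DDT, had 81.1, 188 and 36.3 normalized counts in Alk-YS replicates 1, 2 and 3, against 47.3, 152 and 38.4 in w1118 replicates 1, 2 and 3. Cyp4d1 had 71.0, 246 and 17.7 in Alk-YS, against 119.9, 607 and 27.6 in w1118. In both genes, and in Cyp304a1, replicate 2 was the highest of its genotype, as was the fat body marker sum given above.

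Of the 76 genes, 12, 24 and 21 had their highest value in w1118 replicates 1, 2 and 3. In Alk-YS replicates 1, 2 and 3 the numbers were 9, 9 and 1. The library of w1118 replicate 3 had the most midgut transcripts. It also had the highest hemocyte marker sum (10677 normalized counts, against between 4548 and 6889 in the other libraries). Of the genes highest in w1118 replicate 3, a set of 4, picked with their values in view, had few reads elsewhere. Cyp313a2 had no read in the 3 Alk-YS libraries or in w1118 replicates 1 and 2, and 14.8 normalized counts in w1118 replicate 3. Cyp313a3 had none in Alk-YS, against 1.10, 0 and 9.84 in w1118, and Cyp4c3 had at most 0.930 in Alk-YS, against 0, 0 and 10.8 in w1118. Cyp313a5, which adjoins Cyp313a2, had 4.61, 5.34 and 1.86 in Alk-YS, against 5.50, 0 and 34.5 in w1118. Alk-YS replicates 1 and 3, which also held midgut markers, had at most 4.61 normalized counts of any of these 4 genes. The part of fat body, midgut or hemocyte transcripts in these P450 levels was not tested.

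**Figure D5:**
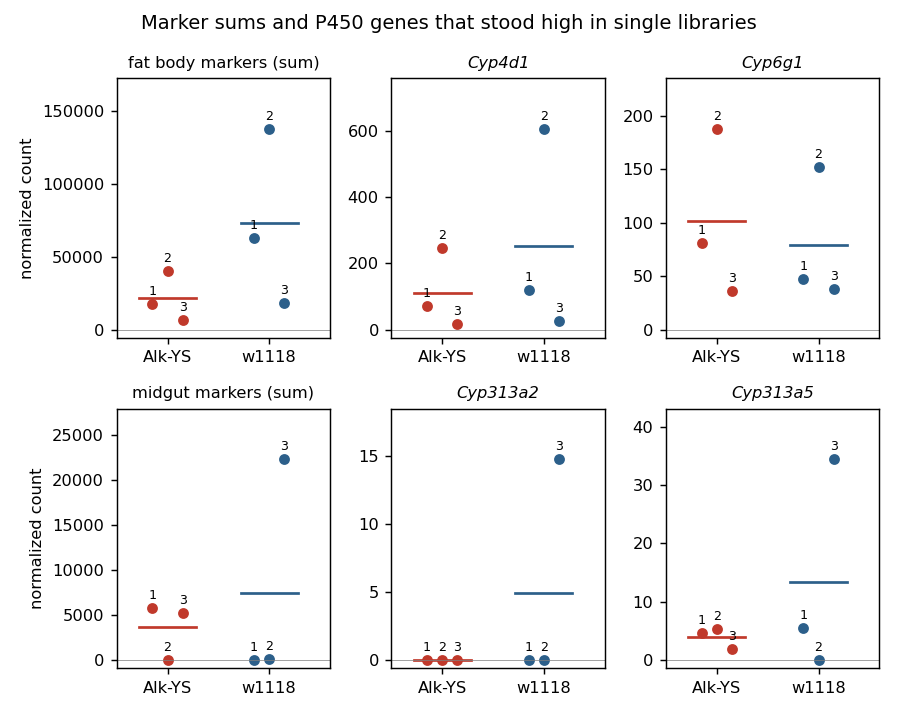
Normalized counts per library (points numbered by replicate, horizontal bars at group means) for the summed fat body and midgut markers and for 4 P450 genes, Alk-YS left of w1118. Replicate 2 was highest within its genotype for fat body markers, Cyp4d1 and Cyp6g1, and w1118 replicate 3 was highest for midgut markers, Cyp313a2 and Cyp313a5.

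The 4 called genes were set beside these marker sums. Cyp12a4 was highest in replicate 2 and lowest in replicate 3 within both genotypes, as was the fat body sum. Cyp28a5 and Cyp4ac1 were also highest in replicate 2 within Alk-YS, but in w1118 they were lowest there and highest in replicate 3. Cyp6a17, with no read in Alk-YS, was likewise highest in w1118 replicate 3. The midgut and hemocyte sums were highest in w1118 replicate 3 too, but within Alk-YS they were highest in replicates 1 and 3, respectively. The part of these tissues in the 4 differences was not tested. When the 3 libraries with midgut transcripts were left out, 1 Alk-YS and 2 w1118 libraries remained, and limma, which then assumes that the lone Alk-YS library varies like the others, called 0 genes in all. The log2 fold changes of the called genes in those libraries were -9.03 for Cyp6a17, -2.81 for Cyp12a4, -2.34 for Cyp28a5 and -1.09 for Cyp4ac1. The groups of these genes do not overlap, so any choice of libraries gives a negative sign, and the sign tells nothing more. The log2 fold change of Cyp4ac1 was much smaller than over 6 libraries.

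The genes that P450 enzymes depend on were examined next. The 22 genes covered electron donors, heme synthesis and breakdown, and genes listed as regulators of the response to foreign compounds. The regulators were cnc, Keap1, maf-S, Hr96, ss, tgo, gce and Met. All 22 were tested and 0 were called by limma, against 1.71% of all tested genes called lower and 1.26% higher. By sign 7 were higher and 15 lower, against 48.4% of all tested genes lower, with a median log2 fold change of -0.07. At an unadjusted p under 0.05 there were 2, both lower, against 7.71% of all tested genes, edgeR called 0, and DESeq2 called 1 lower, against 3.65%. The counts of genes that passed these thresholds are close to the shares over all genes, but more of the 22 were lower by sign. Without overlap dare, Alas, Pbgs, Coprox and maf-S were lower and Ho was higher, against 10.1% and 9.41% of all tested genes. The 6 electron-transfer genes included Cpr, the reductase of microsomal P450s (log2 fold change 0.05), and dare, the ferredoxin reductase of mitochondria (-0.15). Another, Cyt-b5-r, had the largest change of the 22 (-1.69, limma adjusted p = 0.518), at low counts and with overlapping groups. Of the 8 heme genes, Pbgs, porphobilinogen synthase, was the lowest, at 405 ± 7.17 normalized counts in Alk-YS and 499.7 ± 49.8 in w1118 (SD, n = 3 each; limma adjusted p = 0.291). Of the 8 regulators, maf-S, the partner of the oxidative-stress factor cnc, averaged 1432 ± 208 normalized counts in Alk-YS and 2392 ± 558 in w1118. The log2 fold change of maf-S was -0.72 ± 0.19 SE (limma adjusted p = 0.0969, DESeq2 adjusted p = 0.00313). Its 3 Alk-YS libraries lay below its 3 w1118 libraries, while cnc itself had a log2 fold change of 0.06.

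P450 genes that carry other names were looked at for comparison. These make the moulting hormone ecdysone in the prothoracic gland, which stays attached to the brain on dissection. The 5 found in the table were phm, dib, sad, shd and spok, and none was called. In every library phm, sad and spok had a higher FPKM than any Cyp-named P450 gene. For phm the FPKM values were 57.2, 86.1 and 118 in Alk-YS, against 78.2, 114.7 and 132 in w1118. For dib they were 8.34, 10.7 and 17.6 in Alk-YS, against 6.16, 8.82 and 8.30 in w1118. The lowest was shd, which acts in tissues outside that gland, with between 0.308 and 0.563 FPKM in Alk-YS and between 0.565 and 1.18 FPKM in w1118. The limma log2 fold changes were -0.34 for phm, 0.60 for dib, 0.04 for sad, -0.87 for shd and -0.63 for spok, with adjusted p-values between 0.373 and 0.972.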

How the data were processed

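The deposited comparison table held gene counts that the authors made with HISAT2 2.0.5, featureCounts 1.5.0-p3 and DESeq2 1.20.0 (from the submitters' processing notes) on Ensembl BDGP6 and divided by size factors, here called normalized counts (a signal, not raw counts). The strand setting and annotation release were not given in the sources used here. The authors also deposited FPKM values, used to compare levels between genes. Their own fold changes and p-values in the table were not used. All values were whole multiples of the step of 1 read (100% within 0.01), so reads were recovered by division.

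Genes averaging 10 or more normalized counts were tested on log2(normalized count + 1), which understates the change of low genes, with limma 3.58.1 in R 4.3.3 (trended eBayes, two-sided, Benjamini-Hochberg over 9668 genes, called at an adjusted p under 0.05). Fits with edgeR 4.0.16 and DESeq2 1.42.0 on the recovered reads and other scalings, pseudocounts and filters were alternatives, and the 3 tools were tested on simulated data. Libraries were grouped by label. Replicate pairs differed by a chi-square per gene of 12.8 to 96.0, beyond sampling noise. Same-numbered libraries were not treated as paired. Counting error alone allows up to 3 reads behind a count of 0.

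Coordinates are those of the table; 75 of the 77 genes had the same span in the BDGP6 annotation used here, from which exon overlaps came. Clans were assigned by family number. Named genes were those called, those with an unadjusted p under 0.05 and no overlap between groups, the 10 highest by FPKM, cluster mates of called genes and members of known function; Cyp6d4, Cyp4s3, Cyp6a16, Cyp4d20, Cyp4d8, Cyp4p1, Cyp4p2, Cyp313a2, Cyp313a3, Cyp313a5, Cyp4c3, Cyp4d1, Cyp6w1, Cyp309a1, Cyp12c1 and the members of other clusters were added after their values were seen. The members and lists were chosen with earlier results of these data known. Malpighian tubule markers (1 of 2 found) and trachea and cuticle markers (2 of 4 found) showed 0 calls, as did the 6 ring gland markers.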

Additional observations from a re-analysis of the deposited data

Results flagged for a closer look

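Cyp12d1-d lay below the minimum for testing, at a mean of 10.8 normalized counts in the 3 Alk-YS libraries, while no w1118 library had a read. It is listed here because these reads lie above the control level in genes that the main comparison left out. Without the minimum limma called it higher (log2 fold change 3.26, adjusted p = 0.0357), the 1 P450 gene under the minimum called in that direction. Alk-YS replicate 2 held 20 of its reads, and replicates 1 and 3 held 4 and 8. Cyp6a2 averaged 6.05 normalized counts in Alk-YS and 0.734 in w1118, and limma without the minimum did not call it (adjusted p = 0.142).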

How the results depend on the processing

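The count of P450 genes called, 4 by limma, was 3 with edgeR or with no mean-variance trend, 4 with TMM or upper-quartile scaling, robust eBayes, a pseudocount of 0.1 or a minimum mean of 50, and 5 with a pseudocount of 5 or on the FPKM table. It was 8 with DESeq2, 8 without a filter on low values (7 lower and 1 higher), and between 3 and 5 when 1 library was left out. Without the 3 libraries with midgut transcripts it was 0, as was the count over all genes; that choice leaves 1 Alk-YS library. Adding Cyp1 was chosen after seeing the data and added no call. At an adjusted p under 0.01, 3 P450 genes were called. Over all genes 287 were called, against 612 with DESeq2, 84 at an adjusted p under 0.01, and between 105 and 336 when 1 library was left out. The partner genes gave 0 calls, 1 with DESeq2, and between 0 and 1 when 1 library was left out. Same-numbered libraries gave correlations of deviations of -0.12, 0.35 and 0.41 for replicates 1, 2 and 3. For replicates 2 and 3 the same-numbered library was the best match, whereas Alk-YS replicate 1 went best with w1118 replicate 3. Whether the numbers mark shared batches was not settled. With a replicate block 6 P450 genes were called, Cyp6a23 and Cyp6d5 being added. Called neighbours numbered 2 within 20 kb and 1 within 10 kb, and 11 P450 genes reached 5 FPKM against 24 at 1 FPKM.

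Of 521 values of named genes under the alternatives, 484 kept direction and call, 8 gained a call, 11 lost one and 18 changed sign, all of the last in genes that were not called. Direction turned for Cyp304a1 with edgeR (-0.047) and DESeq2 (-0.035), and without the 3 libraries with midgut transcripts for Cyp303a1 (0.22), Cyp301a1 (-0.0038), Cyp12e1 (0.045) and Cyp6v1 (-0.086). Leaving out 1 library gave log2 fold changes between -0.19 and 0.46 for Cyp28d1, -0.32 and 0.010 for Cyp4e2, -0.26 and 0.93 for Cyp6g1, -0.13 and 0.17 for Cyp301a1, -0.037 and 0.53 for Cyp6a9, -0.11 and 0.085 for Cyp12e1, and -0.30 and 0.95 for Cyp304a1. The cause was not tested. Depth limits the 36 genes under the minimum, whose differences rest on few reads.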
